A study of Mus musculus with 4 samples.

Results

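The genes described here are 7 of the 28693 features counted in single cells of the mouse mammary gland, the MHC class II genes Cd74, H2-Aa, H2-Ab1, H2-Eb1, H2-DMa, H2-DMb1 and Ciita. They were taken by symbol, and each symbol named 1 feature. MHC class II molecules display peptides from ingested or internal proteins on the cell surface to CD4 T cells. Dendritic cells, macrophages and B cells carry most of them, while epithelial and endothelial cells can make them when interferon gamma switches on the transactivator CIITA.

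The study compared glands with and without the Hippo pathway kinases LATS1 and LATS2 in the luminal epithelium. WT mice carried floxed Lats1 and Lats2 alleles (Lats1f/f;Lats2f/f) and 1 copy of the Cre-dependent reporter R26-lsl-EYFP, with no Cre. LATS1/2 KO mice carried the same floxed alleles and Krt8-CreERT2, with EYFP heterozygous in replicate 1 and homozygous in replicate 2. All were adult nulliparous mice and received 5 daily injections of 2 mg tamoxifen, and glands were taken 7 days after the last dose. Each of the 4 libraries, 2 per group, came from 1 mouse. The Cre is driven by the Krt8 promoter, so deletion was limited to cells that use this promoter, and the WT mice cannot show an effect of Cre itself. Live cells from the third to the fifth gland pairs, with lymph nodes removed from the fourth, were sorted and sequenced with 3' tag chemistry.

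After filtering, 18200 of 20324 barcodes were kept. WT replicates 1 and 2 held 4914 and 3515 cells with 46810771 and 42630666 unique molecular identifiers (UMIs, counted transcripts), and LATS1/2 KO replicates 1 and 2 held 4499 and 5272 cells with 38792520 and 44758376 UMIs. The median cell held 7443.5 and 10141 UMIs in the WT libraries and 6724 and 5962.5 in the KO libraries. Among kept cells, 43 barcode sequences occurred in more than 1 library. Cells were assigned to lineages by marker genes; 1485 were not assigned and 200 with markers of the epithelium and of another lineage were set aside as mixed.

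The luminal gate held 4005 and 3043 cells in the WT libraries and 2718 and 2329 in the KO libraries, and was divided by hormone-receptor genes into hormone-sensing and progenitor-type cells. Hormone-sensing cells numbered 1236, 988, 450 and 131 in WT replicates 1 and 2 and KO replicates 1 and 2, so the KO luminal sums held fewer of them. In progenitor-type cells all 7 progenitor markers were detected in every library, with a summed level of 12485 and 14974 CPM (counts per 1e6 UMIs of that cell type in that library) in WT and 5920 and 7516 CPM in KO. The most abundant of them was Plet1 in WT and Wfdc18 in KO. The 8 basal markers summed to 20.3 and 15.5 CPM there in WT and to 1865 and 1328 CPM in KO, led in KO by Krt14. The KO cells in this gate thus held basal keratin transcripts beside luminal markers, and less of the progenitor list. The 6 epithelial markers, all detected, summed there to 14835 and 14780 CPM in WT and to 21122 and 19970 CPM in KO, led by Krt18. In their own gates all markers of these lists were detected in each library: 7 hormone-sensing markers at 6313 and 5028 CPM in WT and 5165 and 5038 CPM in KO (led by Prlr in WT and Areg in KO), 8 basal markers at 4241 and 6940 CPM in WT and 5893 and 6232 CPM in KO (Acta2 in WT, Krt14 in KO), and 8 endothelial markers at 5149 and 5679 CPM in WT and 5459 and 5053 CPM in KO (Pecam1).

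Of the targeted genes, Lats1 was measured in luminal cells at 23.9 and 23.9 CPM in the WT libraries and at 15.6 and 15.9 CPM in the KO libraries. Lats2 stood at 13.8 and 15.0 CPM in WT and at 26.8 and 29.4 CPM in KO. A 3' tag outside a deleted exon does not report the deletion, and the deleted exons are not stated, so these levels do not check the genotype. The EYFP reporter, which Cre switches on, was measured in luminal cells at 0.282 and 0.324 CPM in WT and at 91.8 and 140.3 CPM in KO, which separates the groups as labelled. In basal cells EYFP was at 0.798 and 2.41 CPM in WT and at 22.1 and 50.03 CPM in KO, and in endothelial cells at 0 and 5.08 CPM in WT and 3.54 and 11.6 CPM in KO.

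The class II genes other than Cd74 and Ciita lie together on chromosome 17 (GRCm38, mm10): H2-DMa at 34119541 to 34139101, H2-DMb1 at 34153072 to 34160230, H2-Ab1 at 34257689 to 34269419, H2-Aa at 34282744 to 34287823 and H2-Eb1 at 34305867 to 34316674. H2-Aa is on the minus strand and the others are on the plus strand. Cd74 lies on chromosome 18 at 60803848 to 60812652, plus strand, and Ciita on chromosome 16 at 10480059 to 10528418, plus strand. Gene models overlap at H2-DMa (Brd2, CR974462.3, CR974462.4 and Gm20493), at H2-Eb1 (Gm20513), at Cd74 (Mir5107) and at Ciita (Dexi), so the counts of these members are uncertain to the extent that reads could be assigned to either model. Over all cells Cd74 had 12838 UMIs, H2-Ab1 5180, H2-Eb1 3596, H2-Aa 3577, H2-DMb1 3342, H2-DMa 1304 and Ciita 27.

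Which cells supplied these UMIs differed between the groups. Progenitor-type luminal cells held 30.1% and 33.4% of the Cd74 UMIs of the WT libraries and 3.09% and 2.45% of those of the KO libraries. Macrophages held 29.6% and 27.4% in WT and 75.1% and 67.4% in KO, from 7 and 7 macrophages in WT and from 254 and 366 in KO. Within the WT macrophages a single cell held 370 of 762 Cd74 UMIs in replicate 1 and 164 of 188 in replicate 2, so WT macrophage levels rest on very few cells. H2-DMb1 had another distribution: hormone-sensing cells held 56.6% and 66.9% of its UMIs in WT and 20.6% and 5.82% in KO.

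Cd74, the invariant chain that guides class II molecules to the compartment where peptides are loaded, was at 21527 and 4296 CPM in macrophages of WT and at 3605 and 1917 CPM in those of KO. B cells had 17458 and 16699 CPM in WT and 7215 and 5171 CPM in KO, from 2 to 10 cells per library. Dendritic cells had 29358 CPM in WT replicate 1, from 1 cell, and 22740 and 9919 CPM in KO, and WT replicate 2 held none. These immune cells lay above all other cell types named here, and no test was made in them because each type had libraries with fewer than 20 cells. Endothelial cells had 337 and 157 CPM in WT and 91.3 and 46.6 CPM in KO. In each library the endothelial value was above the luminal, basal and fibroblast values. T/NK cells had 16.4 and 30.4 CPM in WT and 220.4 and 63.7 CPM in KO, from 7 to 13 UMIs per library, and in KO they did not differ from endothelial cells beyond the spread between libraries.

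Cd74 in basal cells was at 33.5 and 9.65 CPM in WT and at 17.8 and 3.47 CPM in KO. Progenitor-type cells had 30.5 and 10.7 CPM in WT, from 775 and 229 UMIs, and 6.57 and 3.81 CPM in KO, from 165 and 104 UMIs. Hormone-sensing cells had 9.05 and 4.65 CPM in WT and 6.25 and 4.33 CPM in KO. In WT, basal, progenitor-type and fibroblast levels (23.5 and 9.12 CPM in fibroblasts) did not differ beyond the spread between the WT libraries, and in KO the 2 luminal types did not differ beyond the spread between the KO libraries. WT replicate 1 was above WT replicate 2 in all of these cell types.

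**Figure D1:**
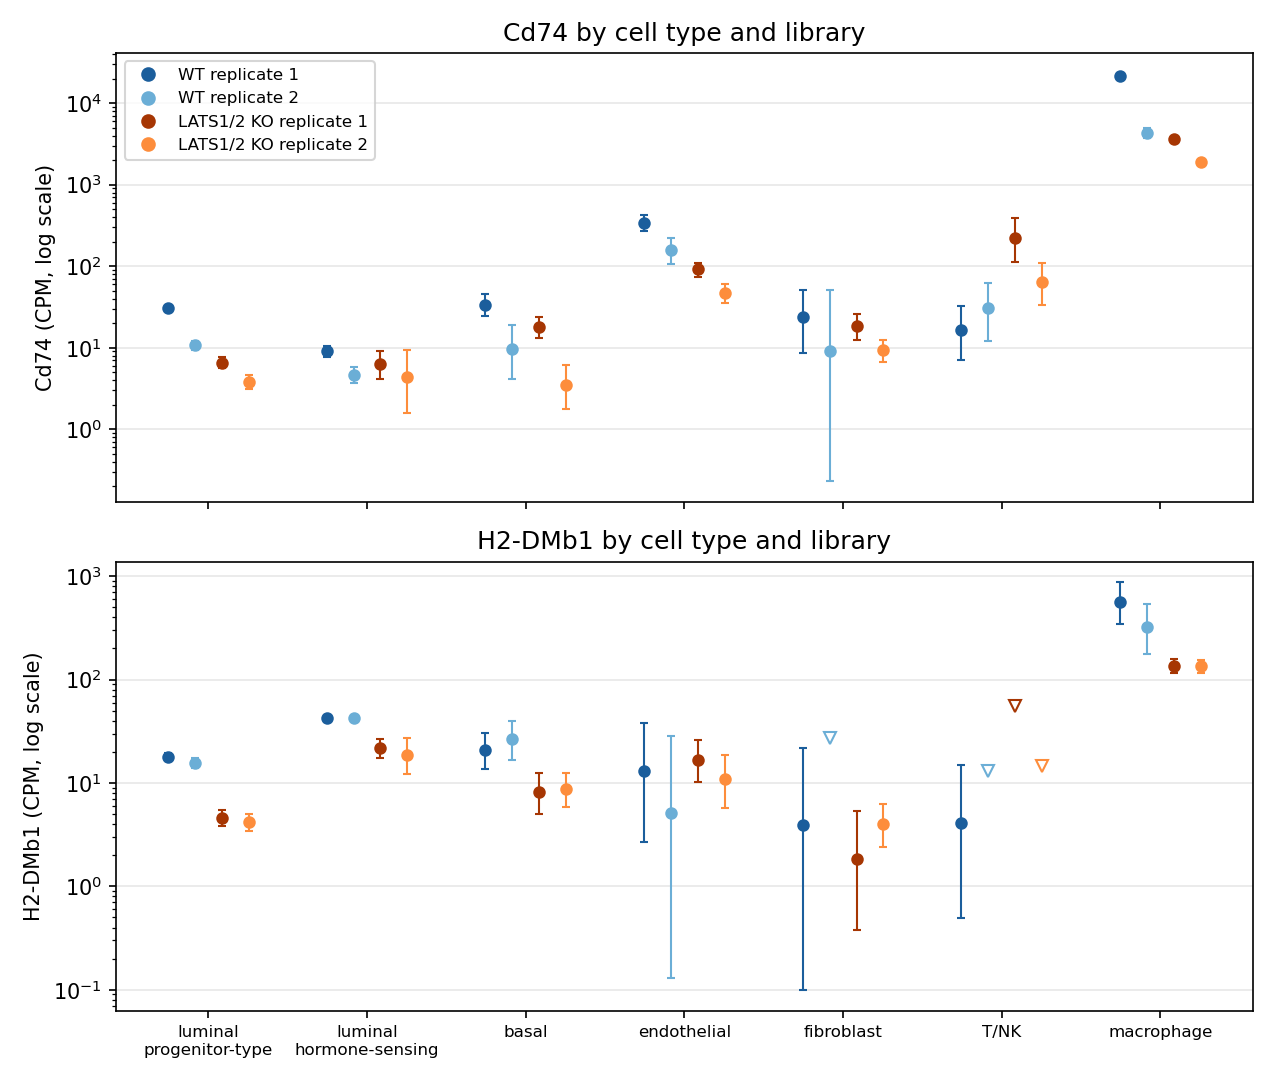
Level of Cd74 and H2-DMb1 (CPM, log axis) in each library by cell type, with 95% Poisson intervals, which cover counting error only; open triangles mark the floor of 3 UMIs where no UMI was counted. In progenitor-type cells H2-DMb1 lies at 17.7 and 15.5 CPM in WT and at 4.62 and 4.18 CPM in KO, with no overlap of the groups.

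The question of the main comparison was how these levels differ between LATS1/2 KO and WT within a cell type. UMIs were summed per library and cell type and tested with edgeR's quasi-likelihood test, with Benjamini-Hochberg adjustment over all genes tested, and adjusted p-values below refer to it. The log2 fold changes include edgeR's TMM scaling, which CPM values do not: it moved KO against WT by -0.20 in luminal, -0.34 in progenitor-type, -0.03 in hormone-sensing, -0.11 in basal and 0.05 in endothelial cells on the log2 scale.

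In the sum of all luminal cells, 4 of the 6 members tested were lower in KO and 0 higher by edgeR (DESeq2 called 3), where 28.2% of all 14318 genes tested were lower, 30.5% higher and 58.7% called either way. The median log2 fold change was -1.56 over these 6 members and 0.01 over all genes tested. Ciita did not pass the filter on low counts. With most genes called in this comparison, a call by itself is near the background.

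Among the class II chains, which pair as alpha and beta chains to hold the peptide, H2-Ab1 (the A beta chain) was measured in progenitor-type cells at 23.4 and 11.8 CPM in WT and at 6.96 and 4.32 CPM in KO. Both KO libraries were below both WT libraries. The log2 fold change was -1.995 (SE 0.35, adjusted p 0.00185), and in all luminal cells it was -1.40 (SE 0.36, adjusted p 0.0211). In the luminal sum the call was not made without WT replicate 1 (-0.86, adjusted p 0.0726) or without KO replicate 2 (-1.12, adjusted p 0.0751), while in progenitor-type cells the call was made with any 1 library left out.

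H2-Aa, the A alpha chain, had 4.01 and 1.45 CPM in progenitor-type cells of WT and 1.87 and 1.58 CPM in those of KO. H2-Eb1, the E beta chain, had 4.41 and 2.39 CPM in WT and 2.94 and 1.43 CPM in KO. For these genes only WT replicate 1 stood above the KO libraries, and the groups overlapped. The log2 fold changes were -1.03 (SE 0.45, adjusted p 0.0800) and -0.996 (SE 0.41, adjusted p 0.0682), so neither passed. Leaving out WT replicate 2 gave calls for both (-1.58 and -1.37), and leaving out KO replicate 1 gave a call for H2-Eb1 (-1.63). Without WT replicate 1 the changes were -0.10 and -0.47 (adjusted p 0.852 and 0.439), and without KO replicate 2 they were -0.89 and -0.54, none of them called.

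Cd74 in progenitor-type cells was lower in both KO libraries than in both WT libraries (levels above), with a log2 fold change of -2.35 (SE 0.48, adjusted p 0.00395). WT replicate 1 weighed on its size: without it the log2 fold change was -1.39, and the call was still made. In all luminal cells Cd74 was at 21.9 and 7.88 CPM in WT and 6.52 and 3.84 CPM in KO, a log2 fold change of -1.72 (SE 0.53, adjusted p 0.0372). That call was not made without WT replicate 1 (-0.80) or without KO replicate 2 (-1.37).

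The peptide loading factor H2-DM exchanges a fragment of the invariant chain for other peptides. Its beta chain, H2-DMb1, was at 17.7 and 15.5 CPM in progenitor-type cells of WT and at 4.62 and 4.18 CPM in those of KO. In hormone-sensing cells it was at 42.0 and 42.5 CPM in WT and at 21.6 and 18.8 CPM in KO, and in basal cells at 20.8 and 26.5 CPM in WT and 8.14 and 8.68 CPM in KO. In each of these cell types replicates of a group lay close together and the groups were apart. The basal sums also held luminal and epithelial transcripts, with every marker of the lists below detected in each library. In WT and then KO, 7 progenitor markers summed there to 3798 and 3223 CPM (led by Plet1) and to 1024 and 1162 CPM (Wfdc18). Likewise 7 hormone-sensing markers summed to 1325 and 348 CPM (Prlr) and to 114 and 30.4 CPM (Areg), and 6 epithelial markers to 7425 and 3666 CPM and to 5903 and 5454 CPM (Krt18). Their part in the basal H2-DMb1 values was not tested.

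The log2 fold change of H2-DMb1 was -2.26 in progenitor-type cells (SE 0.15, adjusted p 1.9e-05), -1.05 in hormone-sensing cells (SE 0.14, adjusted p 0.00390) and -1.57 in basal cells (SE 0.30, adjusted p 0.00470), lower in both KO libraries each time. These calls were made with any 1 library left out. DESeq2 did not make the basal call (-1.54, adjusted p 0.0687). Progenitor-type cells had 3 of 6 members tested called lower, where 30.8% of all 13673 genes were lower, 33.8% higher and 64.6% called either way. Hormone-sensing cells had 2 of 6 called lower, where 12.7% of 12387 genes were lower, 14% higher and 26.8% called either way. Basal cells had 1 of 4 called lower, where 14.5% of 10073 genes were lower, 15% higher and 29.5% called either way. The median log2 fold change of the members tested was -1.51, -0.43 and -1.37 in that order, beside 0.02, -0.01 and 0.00 over all genes tested.

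H2-DMa, the alpha chain of the same factor, was, among luminal cells, higher in the hormone-sensing type, at 13.5 and 12.3 CPM in WT and at 4.33 and 3.61 CPM in KO, the KO values resting on 18 and 5 UMIs. The KO libraries were both below the WT libraries, with a log2 fold change of -1.67 (SE 0.24, adjusted p 0.00544). In progenitor-type cells it was at 1.97 and 1.08 CPM in WT and at 1.23 and 1.25 CPM in KO, and the change of -0.65 did not pass (SE 0.36, adjusted p 0.143). The luminal sum gave -2.29 (SE 0.20, adjusted p 0.000636), larger than in either type, in sums that held fewer hormone-sensing cells in KO; how much the mix of the 2 types adds was not tested.

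Other members in hormone-sensing cells did not pass. H2-Ab1 was at 5.49 and 4.76 CPM in WT and at 3.13 and 4.33 CPM in KO, from 13 and 6 UMIs in KO, lower in both KO libraries (log2 fold change -0.57, SE 0.33, adjusted p 0.242). H2-Aa was at 1.05 and 1.02 CPM in WT and at 2.40 and 3.61 CPM in KO, from 10 and 5 UMIs in KO, with a log2 fold change of 1.40 (SE 0.47, adjusted p 0.0695). For H2-Aa both KO libraries were above both WT libraries, as were the myeloid markers (7.88 and 7.49 CPM in WT, 59.2 and 40.4 CPM in KO). Free macrophage RNA, computed as below, would give 15.4 of its UMIs in KO replicate 1, where 10 were observed, and 1.61 in KO replicate 2, where 5 were; its part in the H2-Aa values was not tested. H2-Eb1 had no UMI in KO replicate 2, where the floor of 3 UMIs stands at 2.17 CPM, and its log2 fold change of 0.24 (SE 0.78, adjusted p 0.852) turned to -7.14 without KO replicate 1.

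The difference of the KO effect between hormone-sensing and progenitor-type cells was tested as an interaction term with the mouse as a block, and 3 of 6 members tested were above 0, where 15.5% of 14099 genes were above 0, 12.6% below and 28.1% called either way. The difference was 1.26 for H2-DMb1 (SE 0.21, adjusted p 0.00124), 1.90 for Cd74 (SE 0.36, adjusted p 0.00297) and 2.36 for H2-Aa (SE 0.68, adjusted p 0.0263). A positive value means that the fall in KO was smaller in hormone-sensing cells, or, for H2-Aa, that the fold changes had opposite signs, which rests on the 10 and 5 UMIs above. H2-DMb1 was called with any 1 library left out, Cd74 was not without KO replicate 1 (2.01, adjusted p 0.0993), and H2-Aa was not without WT replicate 1 (1.54), KO replicate 1 (2.81) or KO replicate 2 (2.03). H2-Ab1 was called only without WT replicate 2 (1.64).

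**Figure D2:**
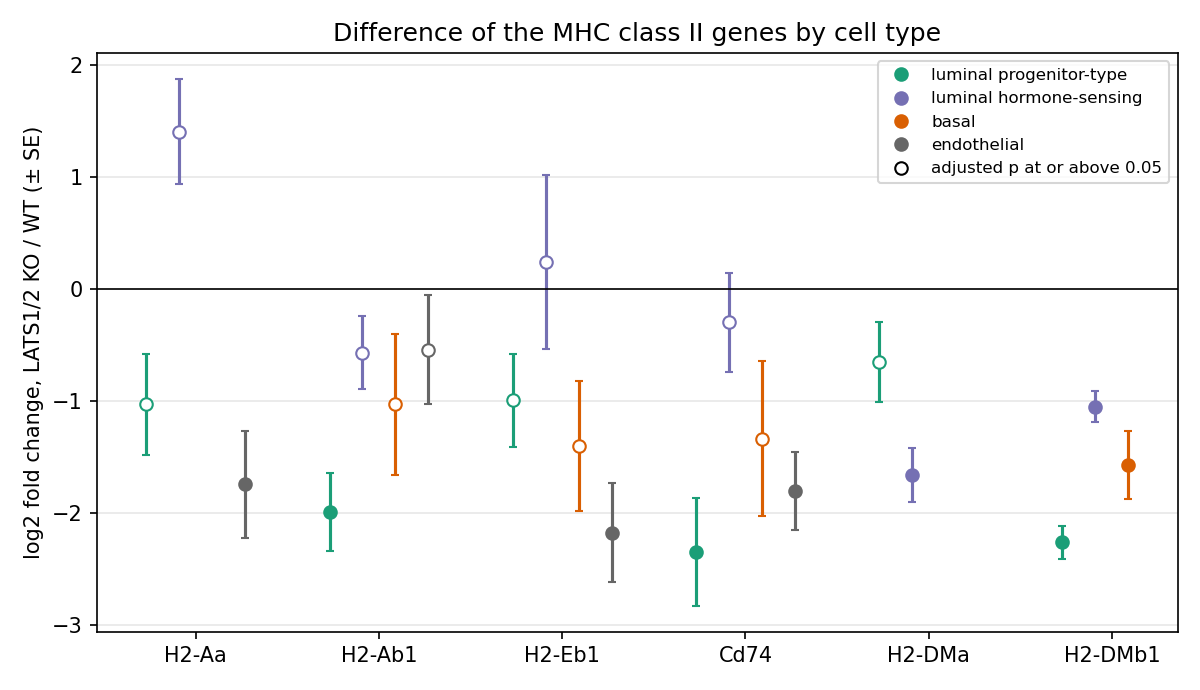
Log2 fold change of each member tested, LATS1/2 KO against WT, by cell type, with standard errors; filled points have an adjusted p under 0.05 in edgeR's quasi-likelihood test. H2-DMb1 lies at -2.26 in progenitor-type, -1.05 in hormone-sensing and -1.57 in basal cells. In endothelial cells H2-Eb1 and H2-Aa passed the filter on low counts only through WT, so their endothelial points, filled or not, are not read as results.

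The WT libraries held 42 and 35 endothelial cells and the KO libraries 241 and 245. Of 7246 genes tested there, 4.31% were lower, 3.8% higher and 8.1% called either way. H2-Eb1 and H2-Aa passed the filter on low counts only through WT, so their tests are not given. H2-Eb1 was at 64.8 and 66.0 CPM in WT and at 17.7 and 9.98 CPM in KO. H2-Aa was at 34.6 and 61.0 CPM in WT and at 15.1 and 11.6 CPM in KO. Cd74 changed by -1.81 (SE 0.35, adjusted p 0.00252), and for these 3 genes both KO libraries were below both WT libraries. A single endothelial cell held 13 of 78 and 15 of 31 Cd74 UMIs in WT and 32 of 103 and 17 of 56 in KO. The endothelial Cd74 levels thus rest in part on few cells.

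DESeq2 also called Cd74 (-1.77), but edgeR did not call it with myeloid-marker cells left out or with sums thinned to the smallest library. The endothelial WT counts were small, at 15 and 13 UMIs for H2-Eb1 and 8 and 12 for H2-Aa. Without WT replicate 1 the log2 fold change of Cd74 was -1.14, and the call was still made. H2-Ab1, with 5 and 10 UMIs in WT, was at 21.6 and 50.8 CPM there and at 23.9 and 22.5 CPM in KO (log2 fold change -0.54, SE 0.49, adjusted p 0.572). Myeloid markers stood higher in the KO endothelial sums, at 21.6 and 10.2 CPM in WT and 102 and 156 CPM in KO.

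In basal cells Cd74 changed by -1.34 (SE 0.69, adjusted p 0.178) with the groups overlapping. It was called without WT replicate 2 (-1.86) and without KO replicate 1 (-2.83), and was near 0 without WT replicate 1 (-0.05). H2-Eb1 (-1.40, SE 0.58, adjusted p 0.0982) and H2-Ab1 (-1.03, SE 0.63, adjusted p 0.252) did not pass either. Without WT replicate 2 both were called (-1.82 and -1.52), as was H2-Ab1 without KO replicate 1 (-2.10). Fibroblasts had only Cd74 tested (-0.46, SE 0.69, adjusted p 0.769), where 2.53% of 8074 genes were higher, 2.7% lower and 5.23% called either way. T/NK cells also had only Cd74 tested, with 0.876% of 2968 genes higher, 0.101% lower and 0.977% called either way, and there Cd74, which passed the filter on low counts only through KO, was higher in both KO libraries and was not called (2.28, SE 0.63, adjusted p 0.185).

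Ciita, the transactivator that starts transcription of the class II genes, had 4 and 2 UMIs in luminal cells of the WT libraries and 2 and 3 in those of the KO libraries. In macrophages it had 0 and 1 UMIs in WT and 4 and 2 in KO. At these counts no difference between groups or cell types could be detected.

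Droplets also take up free RNA, so a class II UMI in an epithelial cell can come from another cell. The level that free macrophage RNA would give was computed in each library from 9 myeloid markers: the ratio of a member to the summed markers in macrophages, times the marker UMIs in the cell type. In progenitor-type cells the markers summed to 6.96 and 8.23 CPM in WT, with 8 of 9 detected and Adgre1 at 0, and to 48.8 and 50.5 CPM in KO, with 9 of 9 detected. Lyz2 was the most abundant in all 4 libraries, at 4.25 and 4.35 CPM in WT and at 14.2 and 13.9 CPM in KO. In macrophages they summed to 17685 and 16728 CPM in WT and to 17423 and 18451 CPM in KO; C1qa, C1qb and C1qc were at 0 in the 7 macrophages of WT replicate 2.

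For Cd74 in progenitor-type cells of WT, 775 UMIs were observed where free RNA would give 215, and 229 where it would give 45.2. The KO libraries had 165 where free RNA would give 254, and 104 where it would give 143. The ratios were 3.60 (95% interval 3.35 to 3.86) and 5.07 (4.43 to 5.77) in WT and 0.650 (0.555 to 0.757) and 0.726 (0.594 to 0.880) in KO. Both WT libraries were above 1 and both KO libraries below it, so in KO the Cd74 UMIs of these cells were at or below the level that free macrophage RNA would give. The intervals cover the counting error of the numerator only, and the WT source is 7 cells per library.

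Taking each myeloid marker with counts alone in place of their sum (8, 5, 9 and 9 markers in library order), the ratio for Cd74 in progenitor-type cells ran from 1.25 to 18.6 in WT replicate 1, from 0.102 to 7.30 in WT replicate 2, from 0.105 to 1.10 in KO replicate 1 and from 0.126 to 1.23 in KO replicate 2. Only WT replicate 1 stayed above 1 for each marker. Other leukocytes carry Cd74 as well: B cells held 13.3% and 17.7% of the WT libraries' Cd74 UMIs. With all leukocytes as the source, scaled on pan-leukocyte markers, the ratios were 13.9 and 14.3 in WT and 0.488 and 0.622 in KO.

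H2-DMb1 was above free macrophage RNA in every library. In progenitor-type cells its ratio was 79.8 and 98.6 in WT and 12.1 and 11.4 in KO, and in hormone-sensing cells 167 and 297 in WT and 46.98 and 63.9 in KO. Fibroblasts of KO replicate 2, with 19 H2-DMb1 UMIs, were above it as well, at 6.14 (95% interval 3.69 to 9.58), and their level of 4.03 CPM was close to the 4.18 CPM of progenitor-type cells there. Those of KO replicate 1 had 3 UMIs (1.83 CPM, against 4.62 CPM), and those of WT had 1 and 0. A ratio above 1 thus does not set the progenitor-type cells of KO replicate 2 apart from fibroblasts. H2-Ab1 in progenitor-type cells was also above 1 in all 4 libraries, at 8.44 and 15.9 in WT and 2.22 and 2.56 in KO. The ratios of Cd74, H2-Ab1 and H2-DMb1 thus differed within each library; why they differed was not tested.

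H2-Aa in progenitor-type cells had ratios of 1.69 and 1.90 in WT and 0.613 and 1.09 in KO, and H2-Eb1 1.47 and 6.43 in WT and 1.11 and 0.988 in KO. H2-DMa had 6.32 and 6.38 in WT and 2.06 and 2.82 in KO. In hormone-sensing cells Cd74 was at 0.943 and 2.42 in WT and 0.511 and 1.03 in KO, so only WT replicate 2 lay above free RNA beyond counting error. Endothelial Cd74 was above 1 in all 4 libraries, at 12.8 and 60.4 in WT and 4.33 and 2.88 in KO. The WT values rest on only 5 and 2 myeloid marker UMIs in the endothelial sums, so their size is uncertain. With each marker alone the ratio ran from 3.99 to 11.5 and from 15.5 to 91.8 in WT. In KO it ran from 1.93 to 10.4 and from 1.99 to 4.96.

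**Figure D3:**
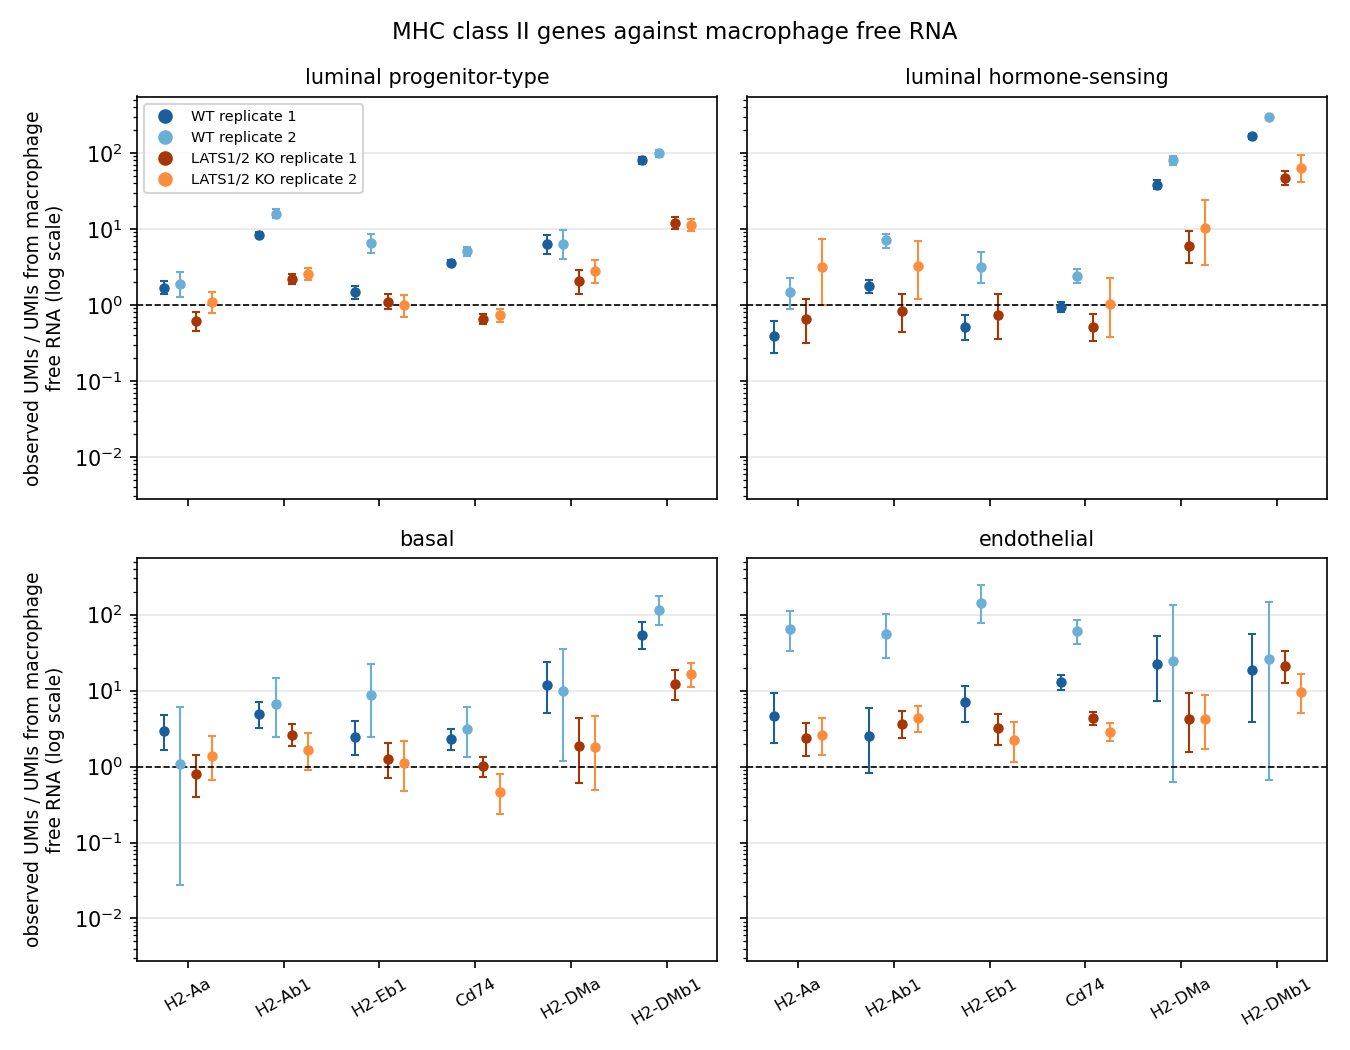
Observed UMIs over the UMIs that free macrophage RNA would give (log axis, dashed line at 1) for the members in each cell type and library, with 95% intervals for the count in the numerator; H2-Eb1 in hormone-sensing cells of KO replicate 2 is not drawn because it had 0 UMIs. Cd74 in progenitor-type cells lies at 3.60 and 5.07 in WT and at 0.650 and 0.726 in KO.

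The share of progenitor-type cells with a Cd74 UMI, after thinning each cell to 2000 UMIs, was 4.07% of 2705 cells and 1.24% of 2018 in WT, and 1.37% of 2193 and 0.655% of 2136 in KO. Shallower cells were left out, 288 and 107 over all cell types in the WT libraries and 470 and 696 in the KO libraries. Fibroblasts, thinned in the same way, had 1.92%, 0 of 19 cells (interval up to 17.6%), 1.20% and 1.71% in WT replicates 1 and 2 and KO replicates 1 and 2. Before thinning the median progenitor-type cell held 7088, 8187, 9202 and 9830 UMIs and the median fibroblast 3905, 4535, 4399 and 4727.

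Only WT replicate 1 had a progenitor-type share above all fibroblast shares, though its own fibroblast share, 1 of 52 cells, has an interval up to 10.3%, and the other shares lay within the range of the fibroblast shares. Fibroblasts were taken as a cell type that should lack the gene, which was not tested. The ends of their range rest on 1 of 52 and 0 of 19 cells, so for WT replicate 2, with its own fibroblasts at 0 of 19 and its Cd74 level at 5.07 times free RNA, the shares do not tell background from expression. In KO replicate 2 the share was below that of its fibroblasts, and in KO replicate 1 the intervals of both overlapped. The KO shares thus do not set progenitor-type cells apart from fibroblasts, and their source was not tested. Myeloid markers stood at 108 and 90.3 CPM in the KO fibroblasts, above the KO progenitor-type cells. Unthinned, the progenitor-type shares were 11.2% and 7.15% in WT and 6.48% and 3.96% in KO. The thinned KO mean was -1.64 percentage points from the WT mean (exact permutation p 0.67, two-sided, 2 against 2 libraries), and 0.33 is the smallest p that this design allows. Endothelial shares were 28.6% and 10.0% in WT and 8.15% and 3.03% in KO, a difference of -13.7 points (exact permutation p 0.33).

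Cd74 UMIs were unevenly spread over progenitor-type cells. The 1% of cells with most of them held 42.2% and 41.9% of the Cd74 UMIs in WT and 24.8% and 37.5% in KO. Cells with 5 or more Cd74 UMIs, a limit chosen after the values were seen and so given without a test, numbered 37 and 7 in WT and 1 and 2 in KO. Most cells with the transcript had only 1 UMI, namely 193 and 119 cells in WT and 137 and 82 in KO.

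The 37 cells of WT replicate 1 held 12822 UMIs at the median and 193 UMIs of epithelial markers, against 6716.5 and 99 in cells with no Cd74 UMI. H2-Aa was detected in 48.6% of them against 0.691%, H2-Ab1 in 64.9% against 12.8%, H2-Eb1 in 48.6% against 1.46%, H2-DMb1 in 40.5% against 12.9% and H2-DMa in 10.8% against 1.06%. Myeloid markers were detected in 5.41% of them against 5.81%, dendritic markers in 8.11% against 3.78% and B cell markers in 8.11% against 3.05%, and no T/NK marker was found in any of the 37. In WT replicate 2, 4 of the 7 such cells held a myeloid marker UMI.

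Luminal cells with and without a Cd74 UMI were compared within libraries after thinning to 2000 UMIs, with 129 and 29 positive cells in WT and 36 and 15 in KO. Of all 10656 genes tested, 0.0563% were higher in positive cells, 0.319% lower and 0.375% called either way. No count of members is read as a result here. H2-Aa and H2-Eb1 passed the filter on low counts only through the positive cells, so a higher value there was set by the filter. H2-Ab1 had 42 UMIs in positive and 221 in negative cells over all libraries, H2-Aa 23 and 41, and H2-Eb1 19 and 55. H2-Ab1, which would pass the filter through either class, had a log2 fold change of 3.02 (SE 0.35, adjusted p 3.4e-14) by the edgeR test. In unthinned cells, where all 3 would pass through either class, the changes were 1.46 for H2-Ab1 (SE 0.14, adjusted p 3.6e-06), 3.13 for H2-Aa (SE 0.38, adjusted p 8.6e-05) and 2.63 for H2-Eb1 (SE 0.32, adjusted p 8.6e-05). Cells were not matched for depth there, and its part was not tested.

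By library, positive cells held 34, 4, 3 and 1 UMIs of H2-Ab1, 18, 3, 2 and 0 of H2-Aa and 13, 5, 0 and 1 of H2-Eb1 in WT replicates 1 and 2 and KO replicates 1 and 2. The thinned result for H2-Ab1 rests on WT replicate 1: without it the change was 2.35 and not called (adjusted p 0.247). KO replicate 2 gave only 15 positive cells, under the 20 asked of a cell type, and without it H2-Ab1 was called (3.09). Leaving out a library was not run in unthinned cells. Without the library as a block H2-Ab1 stood at 3.11 and was not called (adjusted p 0.474). H2-DMb1 had 8 UMIs in positive and 400 in negative cells and did not pass (-0.18, SE 0.57, adjusted p 0.973), nor did H2-DMa (0.61, SE 0.97, adjusted p 0.925).

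Positive cells in WT replicate 1 with both Cd74 and H2-Ab1 numbered 25, where the product of the shares gives 4.05, and 13 had H2-Aa, where it gives 0.659. For H2-DMb1 the count was 6 where the product gives 5.87. In WT replicate 1 Cd74 was found with the myeloid marker Lyz2 in 2 cells (product of shares 1.48) and with Tyrobp, C1qa or C1qb in none. Cells with Cd74 and Tyrobp numbered 0 in WT replicate 2, 1 in KO replicate 1 and 2 in KO replicate 2 (product of shares 0.153 in the last), and 1 cell of WT replicate 2 had C1qb and 1 of KO replicate 1 had C1qa. Myeloid markers in positive and negative cells were at 15.5 and 9.78 CPM in WT replicate 1, 51.7 and 8.92 CPM in WT replicate 2, 97.2 and 65.3 CPM in KO replicate 1 and 100 and 59.9 CPM in KO replicate 2, from 4, 3, 7 and 3 UMIs in positive cells; their part in the result was not tested.

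Other genes named by the rule in that comparison were few. Ubd, a ubiquitin-like gene, was higher in positive cells with 87 UMIs against 1303 in negative cells (log2 fold change 1.28, SE 0.25, adjusted p 0.000253), in 4 of 4 libraries. Without WT replicate 1 none of the 6 genes named here was called by edgeR, the only tool run here (Ubd 0.94). Lower were Defb1, with 4 UMIs against 1163, Mtmr7 with 3 against 954 and Kif5c with 2 against 635. In positive cells Kif5c had counts only in WT replicate 1, Defb1 only in WT, and Mtmr7 only in WT replicate 1 and KO replicate 1. Passing the filter on low counts thus rested mostly on the negative cells, so no conclusion is drawn from these lower values. Fbxo9 and Wfdc12 had 0 UMIs in positive cells against 488 and 451. They passed the filter only through the negative cells, and in unthinned cells neither was called (-0.09 and -0.97), nor was Defb1 (-0.81). Fbxo9 lost its call without any 1 library, and Kif5c and Wfdc12 lost theirs also without WT replicate 2 or KO replicate 1.

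Within the KO libraries, EYFP-positive progenitor-type cells (582 and 666) were compared with EYFP-negative ones (1686 and 1532), which asks whether cells with a recorded Cre event differ. An EYFP-negative cell can also be a recombined cell whose EYFP was missed. Cd74 was at 4.07 CPM in positive and 7.98 CPM in negative cells of replicate 1, and at 2.10 and 5.13 CPM in replicate 2. H2-Ab1 was at 4.40 and 8.42 CPM in replicate 1 and at 2.10 and 6.03 CPM in replicate 2. Both genes were lower in EYFP-positive cells of both mice.

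In EYFP-positive cells 19.4% of 12737 genes were lower, 18% higher and 37.4% called either way. The log2 fold change was -1.12 for Cd74 (SE 0.21, adjusted p 0.00180) and -1.20 for H2-Ab1 (SE 0.22, adjusted p 0.00133). H2-Aa (-0.95, SE 0.34, adjusted p 0.0471) and H2-Eb1 (-0.96, SE 0.31, adjusted p 0.0300) were also called, and each of these was lower in both mice. H2-DMa passed the filter on low counts only through the EYFP-negative cells, so no test of it and no count of members is given. H2-DMb1 was not called (-0.41, SE 0.24, adjusted p 0.205). By edgeR, the only tool run here, Cd74 (-1.16) and H2-Ab1 (-1.19) were not called after thinning cells to 2000 UMIs. No other member could be tested there. Without the mouse as a block Cd74, H2-Ab1, H2-Aa and H2-Eb1 had no call. The EYFP-positive cells held 9095765 and 11878031 UMIs in all, and the negative cells 16032574 and 15412724, so a positive cell was deeper on average.

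Myeloid markers were lower in EYFP-positive cells as well, at 37.6 against 55.2 CPM in replicate 1 and 46.1 against 53.9 CPM in replicate 2. With every cell that held a myeloid marker UMI left out, H2-Ab1 (-0.97) and Cd74 (-0.81) were called. H2-Aa and H2-Eb1 had no call there but were still lower in EYFP-positive cells of both mice. H2-Aa was at 0.957 against 1.64 CPM in replicate 1 and 0.398 against 1.83 CPM in replicate 2, from 5 and 2 UMIs in positive cells. H2-Eb1 was at 1.53 against 3.38 CPM and 1.19 against 1.83 CPM, from 8 and 6 UMIs. Since Cd74 in these cells was at or below the level of free macrophage RNA, how far free RNA sets this difference was not tested.

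Of a list of 37 further genes of the pathway, 33 were among the features (H2-Ea, H2-Ea-ps, Marchf1 and Marchf8 were not). In progenitor-type cells 25 were tested, with 5 higher and 10 lower in KO and a median log2 fold change of -0.23, where 33.8% of all genes tested were higher and 30.8% lower. In hormone-sensing cells 23 were tested, with 5 higher and 3 lower, where 14% of all genes were higher and 12.7% lower. These counts and the median keep any gene that passed the filter on low counts through a single group, which sets its direction. Cd40 and H2-Oa are such genes in progenitor-type cells, so the counts are not read as results. H2-Oa, a chain of the H2-O modulator of peptide loading, was at 5.86 and 4.12 CPM in progenitor-type cells of WT and at 0.159 and 0.183 CPM in those of KO; it passed the filter on low counts only through WT, so its test is not given.

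On the input side, genes of interferon gamma signalling called lower in progenitor-type cells of KO included Ifngr1 (-0.81), Jak1 (-0.80), Jak2 (-0.63) and Socs1 (-0.65) on the log2 scale. Irf1, a transcription factor induced by interferon gamma, was at 47.04 and 49.6 CPM in WT and at 28.3 and 27.7 CPM in KO (log2 fold change -1.13, SE 0.09, adjusted p 4.8e-05). It was lower in both KO libraries.

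Of 7 factors of class II promoters tested, 3 were lower and 0 higher by edgeR, where 30.8% of all genes tested were lower, and their median log2 fold change was -0.27. Of these, Rfxank was at 14.5 and 12.7 CPM in WT and at 3.70 and 4.43 CPM in KO (log2 fold change -2.08, SE 0.16, adjusted p 4.1e-05), again lower in both KO libraries, and Rfx5 (-0.85) and Nfya (-1.19) were lower too. Genes called higher were the proteases Ctss, Ctsd and Lgmn and the surface proteins Cd274 and Cd40, of which Cd40 passed the filter only through KO. Ctss, which trims the invariant chain, was at 0.747 and 0.702 CPM in WT and at 5.09 and 7.22 CPM in KO (log2 fold change 2.73, SE 0.29, adjusted p 0.000155). Macrophages held Ctss at 1639 and 799.9 CPM in WT and 2699 and 2973 CPM in KO, so its rise goes with that of the myeloid markers, whose part was not tested.

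Endothelial cells had 17 genes of the list tested, with 5 higher and 1 lower (Irf1, -1.01), where 3.8% of all genes tested were higher and 4.31% lower. Basal cells had 21 tested, with 5 higher and 4 lower, where 15% of all genes were higher and 14.5% lower. Any genes that passed the filter through a single group were not taken out of the endothelial and basal counts, which are not read as results. Marker lists of other immune cells in progenitor-type cells gave 4.56 and 3.65 CPM in WT and 92.3 and 84.9 CPM in KO for 9 dendritic markers, led in WT by Zbtb46. In KO nearly all of it was Fscn1 (89.5 and 81.7 CPM), while Xcr1, Clec9a and Siglech were at 0 there. The 8 T/NK markers gave 1.69, 1.36, 1.79 and 1.28 CPM, led by Trbc2.

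Over 30 sums of cell type and library, the genes whose log2(CPM + 1) was most like the mean of Cd74, H2-Aa, H2-Ab1 and H2-Eb1 by Pearson correlation were Lyl1 (0.85), Gpr137b-ps (0.83), Gm6377 (0.82), Pf4 (0.80), AI839979 (0.80), Arl11 (0.80), Naip2 (0.79), Phf11a (0.78), Aqp12 (0.78) and Cd300lh (0.78). The sums share libraries and differ in depth, so this is a description. Aqp12 and Cd300lh were detected at a mean of 0.785 CPM in KO macrophages and at 0 in WT macrophages, endothelial and progenitor-type cells. Among the members not in that mean, the correlation was 0.81 for H2-DMa, 0.68 for Ciita and 0.34 for H2-DMb1.

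H2-Aa and H2-Eb1 were found with Cd74 in the same luminal cells of WT replicate 1, and H2-DMb1 was lower in KO. The promoters of these 3 genes are shown for the motifs that class II promoters are known to share, from RefSeq sequences of 300 bases across each gene start. The Y box (TGATTGG, or CCAATCA on the other strand) was found in 2568 of 32851 such promoters (7.82%), and an X box core (GCAACNG, or CNGTTGC) in 4161 (12.7%), with both in 330 (1.00%). The windows of H2-Aa, H2-Eb1 and H2-DMb1 held the Y box, its first base at 201, 190 and 188 of the window, and that of H2-Eb1 also held the X core, 23 bases before the Y box. Only this core was searched for, so a window without it is not shown to lack an X box. An X core with a Y box 10 to 25 bases after it occurred in 21 promoters (0.0639%). H2-DMa had 2 entries, at chr17:34122582-34122881 and chr17:34125268-34125567, and neither motif was found in them. Both lie inside the gene model given above, which starts at 34119541, and do not cover that start. They therefore do not show whether the H2-DMa promoter holds the motifs. The promoter table used here has no entry for H2-Ab1, Ciita and Cd74. Capitals mark the motifs, which are matches of letters and not shown to be bound. The windows lie at chr17:34287774-34288073 (minus strand) for H2-Aa, chr17:34305617-34305916 (plus strand) for H2-Eb1 and chr17:34152941-34153240 (plus strand) for H2-DMb1, in GRCm38.p6.
H2-Aa: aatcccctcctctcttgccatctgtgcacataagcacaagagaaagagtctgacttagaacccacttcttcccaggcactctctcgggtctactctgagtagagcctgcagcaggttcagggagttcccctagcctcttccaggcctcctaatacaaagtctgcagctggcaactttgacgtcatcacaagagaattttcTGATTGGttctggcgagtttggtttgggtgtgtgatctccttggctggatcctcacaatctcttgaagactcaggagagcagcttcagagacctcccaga
H2-Eb1: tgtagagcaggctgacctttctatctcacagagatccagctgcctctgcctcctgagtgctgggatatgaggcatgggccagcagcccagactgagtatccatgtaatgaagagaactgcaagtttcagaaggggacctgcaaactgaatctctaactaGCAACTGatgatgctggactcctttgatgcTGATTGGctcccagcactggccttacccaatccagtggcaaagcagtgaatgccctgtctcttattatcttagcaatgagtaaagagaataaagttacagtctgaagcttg
H2-DMb1: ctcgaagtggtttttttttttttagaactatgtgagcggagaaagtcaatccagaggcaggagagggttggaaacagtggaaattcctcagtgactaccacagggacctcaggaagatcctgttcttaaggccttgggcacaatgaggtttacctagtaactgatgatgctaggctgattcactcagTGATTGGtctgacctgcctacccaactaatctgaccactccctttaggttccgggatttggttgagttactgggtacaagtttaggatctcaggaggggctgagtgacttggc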

How the data were processed

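Single-cell libraries of 4 mice (2 WT, 2 LATS1/2 KO) were analysed from the counts of UMIs per gene and cell that the authors deposited; per the file headers they were made with Cell Ranger 6.1.2, while the submitters' processing notes name Cell Ranger 3.1.0 and mm10. The members and gene lists were chosen with earlier results of these data known.

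Barcodes were kept where over 500 genes were detected and mitochondrial genes took less than 20% of UMIs. Marker genes were scored as the mean of z-scores. A cell was given a lineage outside the epithelium with a score of at least 1.0, 2 markers detected, a lead of 0.1 and an epithelial score under 0, was luminal with an epithelial score above -0.5 and basal with a basal score above 0.3, and was hormone-sensing with a score of at least 0.5 that exceeded the progenitor-type score. The gate thresholds were chosen after the marker levels had been seen, and 322 luminal cells lay within 0.25 of the hormone-sensing limit. No doublet caller was run: cells scoring for the epithelium and for another lineage were set aside as mixed (200).

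Counts were summed per library and lineage where each library held at least 20 cells, or per library and class of cells with no such minimum (KO replicate 2 held 15 Cd74-positive cells), and tested with edgeR 4.0.16 (TMM, filterByExpr, glmQLFit, glmQLFTest, Benjamini-Hochberg over all genes tested) in R 4.3.3; a call is an adjusted p under 0.05. The edgeR fit was tested on simulated data. Intervals are exact Poisson or Clopper-Pearson at 95% and cover counting error only. Shares were compared by exact permutation over libraries. Alternatives were DESeq2 1.42.0, no filter on low counts, replicate blocks, each library left out, another gate, Leiden clusters (scanpy 1.11.5, leidenalg 0.10.2), stricter mitochondrial limits, thinning, other marker sets and cells with myeloid markers left out. Named genes were the members, a list of pathway genes, the 10 genes most like the members, and, beside Cd74-positive cells, up to 5 of the largest and 5 of the smallest changes called with 1 sign in all libraries. Overlapping gene models were not separated. Python 3.11.15 with numpy 2.4.6, scipy 1.17.1 and pandas 2.3.3 was used.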

Additional observations from a re-analysis of the deposited data

Results flagged for a closer look

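The KO effect on 3 members differed between luminal cell types by the test of the difference itself, an interaction term in edgeR's quasi-likelihood fit over the 8 sums of mouse and luminal type. In that test 15.5% of 14099 genes were above 0, 12.6% below and 28.1% called either way. On the log2 scale, the effect in hormone-sensing cells minus that in progenitor-type cells was 1.26 for H2-DMb1, 2.36 for H2-Aa and 1.90 for Cd74. With 1 library left out H2-DMb1 kept its call (1.13 to 1.34). Cd74 lost it without KO replicate 1 (2.01, adjusted p 0.0993), and H2-Aa without WT replicate 1 (1.54), KO replicate 1 (2.81) or KO replicate 2 (2.03). H2-Aa in hormone-sensing cells of KO rests on 10 and 5 UMIs. The levels that differ are of the same mice: in progenitor-type cells Cd74 stood at 30.5 and 10.7 CPM in WT and 6.57 and 3.81 CPM in KO, and in hormone-sensing cells at 9.05 and 4.65 CPM in WT and 6.25 and 4.33 CPM in KO. Myeloid markers overlapped between the types, at 6.96 and 8.23 CPM in WT and 48.8 and 50.5 CPM in KO progenitor-type cells, and at 7.88 and 7.49 CPM in WT and 59.2 and 40.4 CPM in KO hormone-sensing cells. They were higher in KO in both types, and their part was not tested.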

How the results depend on the processing

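Of 432 log2 fold changes of members under alternatives, 362 kept their direction and side of the threshold, 36 were no longer called, 19 became called and 15 changed sign. Counts of members called were within 1.5 times the reported count in 78 of 101 cases. The counts below stand without the share of all genes called under the same alternative, so they are not read as results about the members. In the reported fits that share was 58.7% in luminal, 64.6% in progenitor-type and 26.8% in hormone-sensing cells. It was 29.5% in basal, 8.1% in endothelial and 0.977% in T/NK cells.

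Without a filter on low counts, 2 members were called in luminal, 5 in progenitor-type, 4 in basal and 2 in T/NK cells. DESeq2 called 0 in basal cells, where edgeR called 1, and 1 in endothelial cells. Leiden clusters in place of the gate gave 2 in basal cells. In endothelial cells Cd74 was not called with myeloid-marker cells left out or with sums thinned to the smallest library. For EYFP classes Cd74 and H2-Ab1 were not called after thinning and were called without myeloid-marker cells.

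With a replicate block, edgeR called 4 members in luminal, 4 in progenitor-type, 2 in hormone-sensing, 2 in basal and 2 in endothelial cells. In endothelial cells H2-Eb1 and H2-Aa had passed the filter only through WT. The labels do not say whether replicate numbers pair mice. The correlation of replicate differences between groups was -0.15 over 14101 luminal genes. It ran from -0.00071 in progenitor-type to 0.051 in basal cells among the other cell types. Such a correlation cannot settle whether the mice were paired. Crossed numbers as a replicate block gave 4446 genes higher and 4208 lower in luminal cells, and 4 members. Without the replicate block, Cd74, H2-Ab1, H2-Aa and H2-Eb1 had no call for EYFP classes, and H2-Ab1 had none for Cd74 classes.

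Leaving out each library gave 2 to 4 members in luminal, 3 to 5 in progenitor-type, 2 to 2 in hormone-sensing, 1 to 5 in basal, 1 to 3 in endothelial and 0 to 1 in T/NK cells, 1 to 4 for the difference between luminal types and 0 to 3 for Cd74 classes, where H2-Aa and H2-Eb1 passed the filter only through the positive cells. The lone library of a group is then assumed to vary like the other group. For EYFP classes this leaves 1 mouse and no residual degrees of freedom, so it was not run.

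Signs changed, none in a value called with all libraries, on leaving out libraries: in luminal cells H2-Aa (-0.85 to 0.34) and H2-Eb1 (-1.13 to 0.066), in hormone-sensing cells H2-Eb1 (-7.14 to 0.77) and Cd74 (-0.73 to 0.26), H2-Ab1 in basal (-2.10 to 0.17) and endothelial cells (-1.07 to 0.13), fibroblast Cd74 (-0.72 to 0.75), the difference between luminal types for H2-Eb1 (-6.03 to 1.31) and H2-DMb1 in Cd74 classes (-0.47 to 0.15). H2-DMa in progenitor-type cells was 0.54 with a stricter gate, H2-Eb1 in hormone-sensing cells -0.033 with DESeq2 and -0.027 with a replicate block, H2-DMa in Cd74 classes -0.090 unthinned, and H2-DMb1 there 0.060 without the block.

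The share of cells with Cd74, KO minus WT, was -3.22 points in luminal, -3.94 in progenitor-type and -1.67 in hormone-sensing cells unthinned, and -0.0923 in hormone-sensing cells at 2 or more UMIs. Leaving out libraries gave -2.28 to 0.0472 in luminal, -3.05 to -0.227 in progenitor-type, -0.502 to 0.664 in hormone-sensing, -3.70 to -0.215 in basal and -23.0 to -4.41 in endothelial cells.

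Cd74 was above free RNA for each myeloid marker alone in 1 library in luminal, 1 in progenitor-type, 0 in hormone-sensing and 0 in basal cells, and with pan-leukocyte markers in 2 in hormone-sensing cells. Of 310 free-RNA ratios, 91 moved beyond the spread between libraries. The cause of these changes was not tested. The crossed block and leaving out libraries for the luminal difference and for shares were chosen after seeing the data. Counts of few UMIs in WT macrophages, endothelial cells and KO hormone-sensing cells limit the precision.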
